A study of Homo sapiens with 3 samples.

Results

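RUNX1 and ETS1 are DNA-binding transcription factors, and both were far more abundant in PLC cells with HKDC1 knocked down, and less abundant in PLC cells with RBBP5 knocked down, than in the NTC library. They are 2 of the 1015 named genes measured in this RNA sequencing series, and 2 of 13370 measured features in all. The pair was selected on the log2 ratios of shHKDC1 over NTC and shRBBP5 over NTC given here, because the factors cooperate on DNA and because each was higher than NTC in one knockdown and lower in the other. Their levels and ratios are therefore a description, and nothing is read from their direction.

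The series holds 3 libraries of total RNA, 1 per group: shHKDC1, in which HKDC1 was knocked down, shRBBP5, in which RBBP5 was knocked down, and NTC. All 3 come from PLC, a human liver cancer cell line, grown in DMEM with fetal bovine serum and no further agent named in the labels. The labels do not say how many shRNA sequences, clones or cultures stand behind a library. HKDC1 is a hexokinase family protein, RBBP5 is a core subunit of the complexes that methylate lysine 4 of histone H3, and the question posed was whether they regulate gene expression.

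RUNX1 binds DNA through its Runt domain as a heterodimer with CBFB and is best known as a master regulator of blood stem cell formation. ETS1 binds a GGAA core through its winged-helix ETS domain, is a target of ERK kinases, and is known from lymphoid and endothelial cells and from matrix protease genes in invasive tumours. On its own ETS1 holds its DNA-binding domain in an autoinhibited state, and binding next to RUNX1 on composite sites relieves that inhibition.

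The deposited table holds estimated counts, called units here, with totals of 115556160 in shHKDC1, 154533913 in shRBBP5 and 161750310 in NTC. Between 99.43% and 99.6% of the units lie in loci that the table does not name. RUNX1 and ETS1 belong to the small remainder given by RefSeq transcript, and HKDC1 and RBBP5 have no row of their own, so the knockdowns themselves could not be checked here. A named gene was the sum of its RefSeq rows, and whether further reads of RUNX1 or ETS1 lie in an unnamed locus was not tested. Low values pile up at 4 units, with 525 NTC rows at 4 against 332 at 3 and 235 at 5, so 1 sequenced fragment is taken as 4 units. That is an assumption made with the values known. Every interval in this text is a 95% interval on such fragments. It covers counting error only, since there are no replicates, and PCR copies of a molecule were not told apart from separate molecules.

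All 3 RefSeq rows of RUNX1 and all 4 of ETS1 are in the table. Of the rows that held reads, both of RUNX1 and NM_005238 of ETS1 belong to transcripts starting at the gene's proximal start, and the rows of the transcripts starting far upstream were at 0. The start of NM_001330451, the other ETS1 row with reads, was not established here. The sequences below show what separates these rows, 30 bases on each side of the point where the transcripts meet or part. They come from GENCODE 29 on GRCh38, whose transcripts matched 6 of the 7 rows without the version number, the exception being NM_001330451. The capitals mark the side on which that transcript differs from its partner, and RUNX1 (chromosome 21) and ETS1 (chromosome 11) both lie on the minus strand.
RUNX1 NM_001001890, proximal start: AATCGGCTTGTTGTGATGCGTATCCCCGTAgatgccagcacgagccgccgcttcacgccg
RUNX1 NM_001754, distal start: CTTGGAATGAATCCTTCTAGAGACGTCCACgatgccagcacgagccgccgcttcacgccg
RUNX1 NM_001001890, long end: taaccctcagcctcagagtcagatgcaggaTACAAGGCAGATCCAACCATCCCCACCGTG
RUNX1 NM_001122607, short end: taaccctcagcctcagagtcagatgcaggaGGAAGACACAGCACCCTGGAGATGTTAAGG
ETS1 NM_005238, proximal start: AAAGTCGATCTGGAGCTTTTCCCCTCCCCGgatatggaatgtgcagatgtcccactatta
ETS1 NM_001143820, distal start: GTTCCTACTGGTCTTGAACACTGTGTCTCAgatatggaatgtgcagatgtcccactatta

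In GRCh38 the distal start lies 160608 bases upstream of the proximal one in RUNX1 and 65254 bases upstream in ETS1. The RUNX1 isoforms are known as RUNX1b (NM_001001890), RUNX1a (NM_001122607) and RUNX1c (NM_001754), of which RUNX1a keeps the Runt domain and lacks the C-terminal activation region. The promoter window that RefSeq gives for RUNX1, from 250 bases before to 50 after the start, spans the proximal start (GRCh38.p14, chr21:34888650-34888949, minus strand). It is shown because each RUNX1 row that held reads starts there, and its capitals mark the ETS core motif GGAA on either strand.
RUNX1 promoter window: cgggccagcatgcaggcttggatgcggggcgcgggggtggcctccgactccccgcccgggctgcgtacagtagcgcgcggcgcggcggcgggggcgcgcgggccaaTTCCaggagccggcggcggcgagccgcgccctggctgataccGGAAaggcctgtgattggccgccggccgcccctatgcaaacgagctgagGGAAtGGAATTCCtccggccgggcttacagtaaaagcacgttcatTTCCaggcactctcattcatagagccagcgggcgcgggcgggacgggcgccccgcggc

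The window holds GGAA 3 times and its reverse complement TTCC 3 times. At least 1 of these stands in 95.5% of the 35116 promoter windows of the same length in the RefSeq table. The longer form CCGGAA, which contains GGAA, occurs once (1 match), and 17.2% of all windows hold it on either strand. The RUNX motifs TGTGGT and TGCGGT have 0 matches on either strand, where 13.1% and 7.29% of all windows hold them. A match is a run of letters and not a measured binding site.

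RUNX1 stood at 778 units in shHKDC1, 27 units in shRBBP5 and 109 units in NTC. As CPM, units scaled to library size with TMM factors, these were 7.53 CPM in shHKDC1 [6.49 to 8.64], 0.169 CPM in shRBBP5 [0.0706 to 0.362] and 0.622 CPM in NTC [0.406 to 0.897]. The shHKDC1 library was the high one, shRBBP5 was the low one, and the 3 counting intervals did not overlap. The shRBBP5 value rests on about 7 fragments and the NTC value on about 27, against 194 in shHKDC1.

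ETS1 stood at 868 units in shHKDC1, 91 units in shRBBP5 and 208 units in NTC. Its scaled levels were 8.40 CPM in shHKDC1 [7.32 to 9.60], 0.570 CPM in shRBBP5 [0.366 to 0.865] and 1.19 CPM in NTC [0.887 to 1.56]. The order of the libraries was that of RUNX1, with shHKDC1 highest and shRBBP5 lowest. The intervals of shRBBP5 and NTC came close to each other without overlapping, on about 23 and 52 fragments. Whether fewer cells expressed either gene or each cell held less of its RNA cannot be told apart in bulk RNA.

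**Figure D1:**
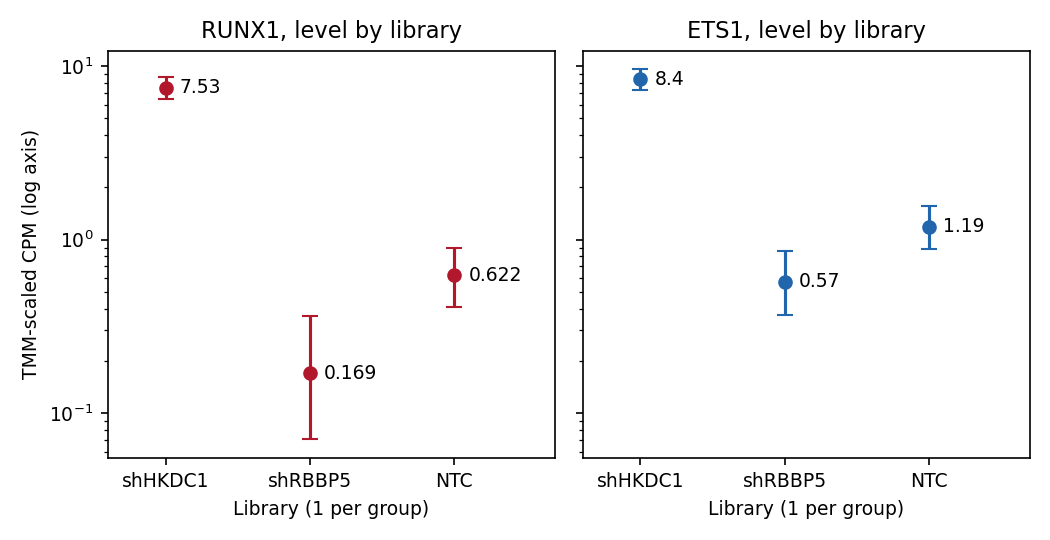
Level of RUNX1 and ETS1 in TMM-scaled CPM on a log axis in the shHKDC1, shRBBP5 and NTC libraries, 1 library each, with bars for the exact 95% Poisson interval on fragments (counting error only). In both genes shHKDC1 is highest (7.53 and 8.40 CPM) and shRBBP5 lowest (0.169 and 0.570 CPM).

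Within RUNX1, the row of NM_001001890.3 (RUNX1b) held 722 units in shHKDC1, 17 units in shRBBP5 and 109 units in NTC. It took 92.8% of the gene's units in shHKDC1 [exact binomial 88.2% to 96.0%], 63.0% in shRBBP5 [18.4% to 90.1%] and 100% in NTC [87.2% to 100%]. These shares overlap between libraries within counting error. The row of NM_001122607.2 (RUNX1a) held 56 units in shHKDC1, 10 units in shRBBP5 and 0 units in NTC. Taking 3 fragments as the limit that 0 allows in NTC (0.0685 CPM), the RUNX1a value in shHKDC1 was at least 7.91-fold higher than in NTC. That bound leaves out the counting error of the 56 units, and the log2 ratio's own counting interval begins at 2.49. In shRBBP5 the RUNX1a row lies under that library's own limit of 0.0752 CPM. The RUNX1c row, NM_001754.5, was at 0 units in all 3 libraries, which allows levels up to 0.116 CPM in shHKDC1, 0.0752 CPM in shRBBP5 and 0.0685 CPM in NTC.

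Within ETS1, the row of NM_005238.4 held 769 units in shHKDC1, 91 units in shRBBP5 and 208 units in NTC. It took 88.6% of the gene's units in shHKDC1 [83.5% to 92.4%], against 100% in shRBBP5 [85.2% to 100%] and 100% in NTC [93.2% to 100%]. The intervals of shHKDC1 and NTC did not overlap, and those of shHKDC1 and shRBBP5 did. The remaining ETS1 reads lay in NM_001330451.2, with 99 units in shHKDC1 and 0 units in both shRBBP5 and NTC. By the same limit of 3 fragments per library, its value in shHKDC1 was at least 14.0-fold higher than that of NTC, and at least 12.7-fold higher than that of shRBBP5. With the counting error of the 99 units, the intervals of these log2 ratios begin at 3.41 over NTC and 3.28 over shRBBP5. The distal-start row NM_001143820.2 and the row NM_001162422.2, which in GENCODE has 4 exons against 8 for NM_005238, were at 0 units in every library. Rows of one gene share bases, so the values of single rows depend on how the authors divided reads between them.

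**Figure D2:**
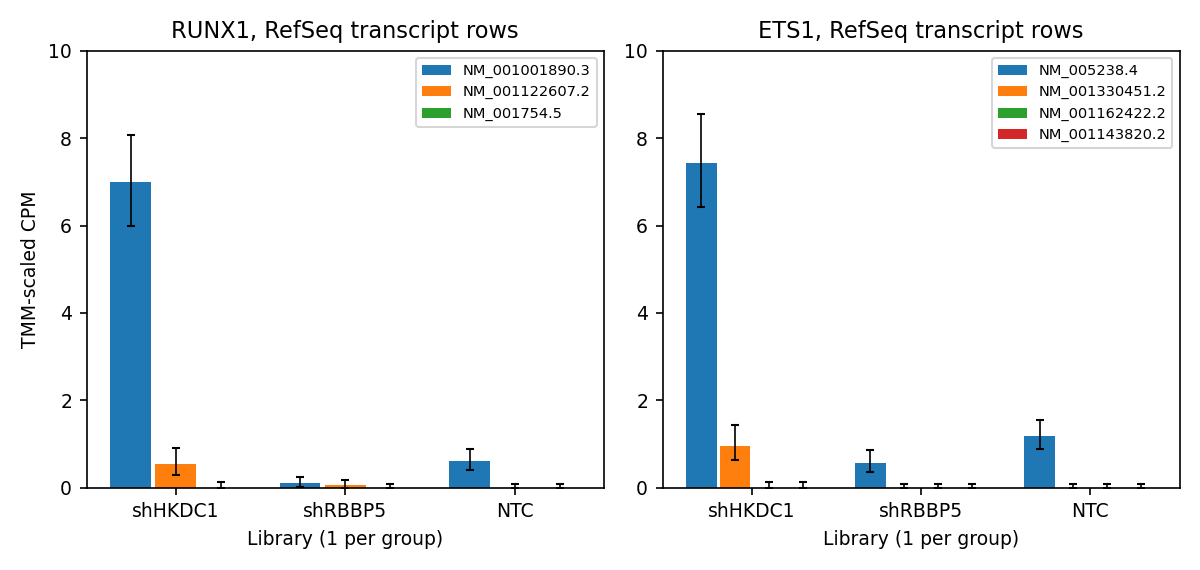
TMM-scaled CPM of each RefSeq transcript row of RUNX1 (3 rows) and ETS1 (4 rows) in shHKDC1, shRBBP5 and NTC, with bars for the exact 95% Poisson interval. NM_001001890.3 and NM_005238.4 hold most of the reads, and the rows NM_001754.5, NM_001143820.2 and NM_001162422.2 are at 0 in every library.

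Other transcripts of the same stretches of DNA could add reads where strand is not used in counting, and the strand setting is not given in the sources used here. Of the genes that overlap RUNX1, the intronic transcript RUNX1-IT1 was at 0 units in all libraries, and RUNX1-AS1 had no row. Of those that overlap ETS1, the antisense RNA ETS1-AS1 and the microRNA gene MIR6090 were at 0 units in all libraries, and the long noncoding RNAs LOC124902790 and LOC105369565 had no row.

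In shHKDC1, RUNX1 was 12.1-fold higher than in NTC (log2 ratio 3.59 [3.02 to 4.25]) and ETS1 was 7.06-fold higher (2.82 [2.38 to 3.29]). A gene was called higher or lower at a log2 ratio of at least 1 in size with an interval excluding 0, and 8.37% of the 1015 named genes were called higher and 23.2% lower in this comparison. Over all 13370 features the shares were 7.97% higher and 12% lower. Both members were among the 85 called, where the choice of members used this contrast. Their ratios ranked 5 (RUNX1) and 11 (ETS1) from the highest, and the median of the named genes was -0.39. Both reached the required mean of 1 CPM through shHKDC1, since the mean of the remaining libraries was 0.396 CPM for RUNX1 and 0.879 CPM for ETS1. Of the named genes, 71 were measured through shHKDC1 in this way, and 43 of those 71 were called higher.

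In shRBBP5, RUNX1 was 3.63-fold lower than in NTC (log2 ratio -1.86 [-3.26 to -0.58]) and ETS1 was 2.08-fold lower (-1.05 [-1.82 to -0.31]). Of the named genes, 8.67% were called lower and 2.27% higher, with a median of -0.20. Over all features, 2.67% were lower and 1.73% higher. RUNX1 ranked 14 and ETS1 74 from the lowest of the 1015. ETS1 passed the 2-fold limit by a small margin, and its interval reaches well inside that limit, as does that of RUNX1. Both comparisons share the NTC library, so a low or high NTC value would move both ratios the same way.

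Set directly against each other, the knockdowns differed by 43.7-fold for RUNX1, with 7.53 CPM in shHKDC1 and 0.169 CPM in shRBBP5 (log2 ratio 5.45 [4.35 to 6.75]). For ETS1 the difference was 14.7-fold, with 8.40 CPM in shHKDC1 and 0.570 CPM in shRBBP5 (3.87 [3.24 to 4.55]). RUNX1 ranked 3 and ETS1 9 from the highest of the 1015 named genes, of which 11.4% were called higher and 17.4% lower in shHKDC1, with a median of -0.14. Over all features, 7.61% were higher and 10.1% lower. This contrast is the difference of the ratios over NTC on which the pair was selected, so its sizes and ranks are a description too. Both genes were among the 1015 through their shHKDC1 values. Higher in shHKDC1 and lower in shRBBP5, both against NTC, were 13 of the 1015 named genes, RUNX1 and ETS1 included, and 52 of all 13370 features (0.389%).

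**Figure D3:**
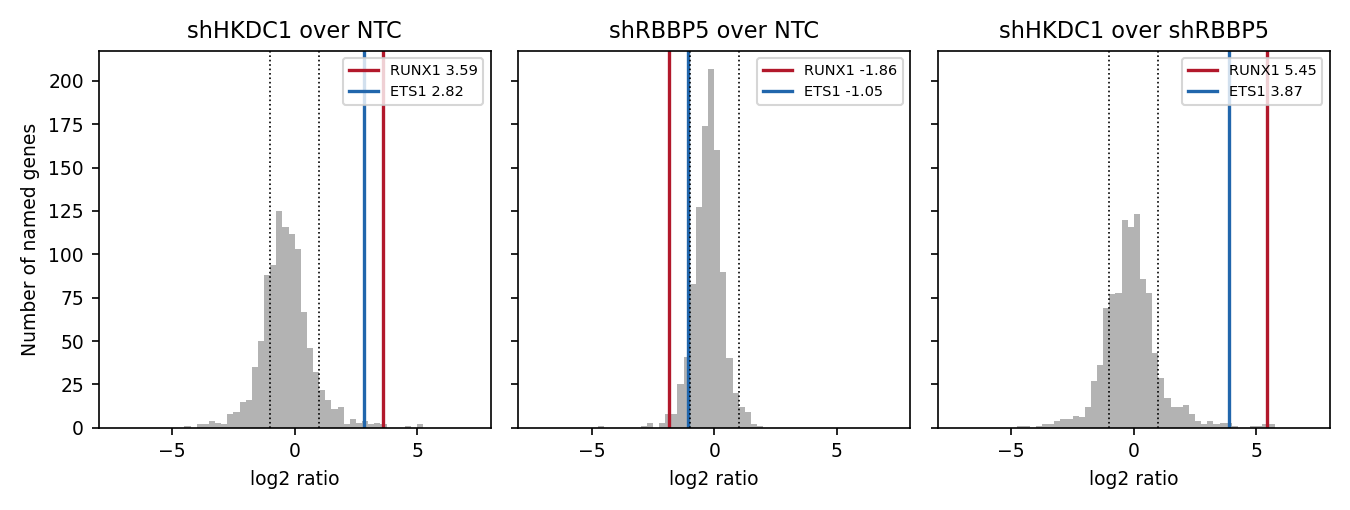
Distribution of log2 ratios over the 1015 named genes in shHKDC1 over NTC, shRBBP5 over NTC and shHKDC1 over shRBBP5, with RUNX1 and ETS1 as vertical lines and the 2-fold limits dotted. Both lines lie in the upper tail in the first and last panels (3.59 and 2.82, 5.45 and 3.87) and on the lower side in the middle panel (-1.86 and -1.05).

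The named genes whose pair of log2 ratios lay nearest to that of RUNX1, by Euclidean distance over shHKDC1 over NTC and shRBBP5 over NTC, were HMX3, LIF and KLRG2. HMX3, a homeobox transcription factor, was at 3.89 CPM in shHKDC1, 0.0877 CPM in shRBBP5 and 0.291 CPM in NTC, a distance of 0.214 from RUNX1. LIF, a cytokine of the interleukin 6 family, was at 2.80 CPM in shHKDC1, 0.0877 CPM in shRBBP5 and 0.411 CPM in NTC, at a distance of 0.895. Each has few fragments in shRBBP5, and the interval of HMX3 in shRBBP5 over NTC included 0 (-1.69 [-3.64 to 0.13]).

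Nearest to ETS1 were KLRG2, VLDLR and FOXQ1, at distances of 0.287, 0.448 and 0.549. KLRG2, a lectin-like receptor gene, was at 4.08 CPM in shHKDC1, 0.244 CPM in shRBBP5 and 0.616 CPM in NTC, and lay 1.02 from RUNX1. VLDLR, a lipoprotein receptor, was at 18.3 CPM in shHKDC1, 1.92 CPM in shRBBP5 and 3.11 CPM in NTC. FOXQ1, a forkhead transcription factor, was at 2.62 CPM in shHKDC1, 0.201 CPM in shRBBP5 and 0.303 CPM in NTC. In shRBBP5 over NTC, VLDLR (-0.69 [-1.11 to -0.27]) was under the 2-fold limit and the interval of FOXQ1 (-0.58 [-2.04 to 0.81]) included 0. Neither was called lower. RUNX1 and ETS1 themselves lay 1.11 apart, farther than each lay from its nearest gene. HMX3, LIF, KLRG2 and FOXQ1 were below 1 CPM in both shRBBP5 and NTC, so they were measured through shHKDC1, like the members. These distances rest on 3 libraries and describe likeness of pattern alone.

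Among the partners of the members, the 4 genes of the RUNX family list (RUNX1, RUNX2, RUNX3 and their heterodimer partner CBFB) included only RUNX1 with rows of its own. Of 28 ETS family genes, 10 had all of their RefSeq rows in the table, 2 were measured and 5 were at 0 in all libraries. The other measured one was ETV1, an ETS factor of the PEA3 subfamily, at 11.7 CPM in shHKDC1, 7.86 CPM in shRBBP5 and 8.94 CPM in NTC. ETV1 was not called in shHKDC1 (log2 ratio 0.38 [0.16 to 0.60]) or in shRBBP5 (-0.19 [-0.40 to 0.03]). SPI1, the blood cell ETS factor PU.1 and a target of RUNX1, had 16 units in shHKDC1, 0 units in shRBBP5 and 43 units in NTC, below the level measured, and was lower in shRBBP5 than in NTC with an interval reaching up to -1.19. The other 7 unmeasured ETS family genes with all their rows were called in neither knockdown over NTC. ETV6, a repressor of the family that had only part of its RefSeq rows in the table, was at 8.21 CPM in shHKDC1, 5.10 CPM in shRBBP5 and 4.69 CPM in NTC and was not called. FLI1, likewise with part of its rows, had 17 units in shHKDC1 and 0 units in both shRBBP5 and NTC. It passed the call limits as higher in shHKDC1 than in NTC, with an interval beginning at 0.16.

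Of 24 RUNX cofactors, 5 had all their rows in the table and 2 were measured. MN1, a transcriptional coactivator, was at 2.34 CPM in shHKDC1, 0.451 CPM in shRBBP5 and 0.565 CPM in NTC. MN1 was higher in shHKDC1 than in NTC (2.05 [1.33 to 2.76]) and not called in shRBBP5 (-0.32 [-1.30 to 0.59]). Like the members, MN1 reached the required mean of 1 CPM through shHKDC1, so its being measured was tied to its high value there. HIPK2, a kinase that phosphorylates RUNX1, had log2 ratios of -0.47 in shHKDC1 and -0.76 in shRBBP5 and was called in neither. Of the 3 cofactors with all their rows that lay below 1 CPM, 2 passed the call limits. With no filter, 557 of 11642 named genes were called higher and 473 lower in shHKDC1 over NTC. In shRBBP5 over NTC these counts were 134 and 291. CBFA2T3, a corepressor of the ETO family, had 181 units in shHKDC1, 34 units in shRBBP5 and 95 units in NTC, and was higher in shHKDC1 (1.69 [0.92 to 2.45]) and lower in shRBBP5 (-1.33 [-2.81 to -0.25]). TLE4, a Groucho-type corepressor, had 75 units in shHKDC1, 127 units in shRBBP5 and 46 units in NTC, and was higher in both (1.46 [0.31 to 2.60] and 1.59 [0.55 to 2.64]).

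Of the 33 genes in the ERK pathway and ETS1 turnover list, 4 had all their rows in the table and the rest had no row of their own. The 3 that were measured were called in no comparison. They were MET, the receptor of hepatocyte growth factor (-0.60 in shHKDC1 and 0.24 in shRBBP5), KSR2, a scaffold of the kinase cascade (-0.62 and -0.04), and DET1, a ubiquitin ligase component (0.58 and -0.11).

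Of the 44 known ETS1 targets reported here, 20 had all their rows in the table and 4 were measured. In shHKDC1 over NTC 0 of the 4 were higher, 1 lower and 3 neither, with a median of -0.65 where the named genes had -0.39. SPP1, the secreted matrix protein osteopontin, had 25 units in shHKDC1, 297 units in shRBBP5 and 350 units in NTC, and was lower in shHKDC1 (-3.02 [-4.60 to -1.93]) and not called in shRBBP5 (-0.10). PLAUR, the urokinase receptor, had ratios of 0.51 in shHKDC1 and -0.38 in shRBBP5, and ZEB2, a repressor of epithelial genes, -0.69 and 0.53, none of them called. In shRBBP5 over NTC 0 of the 4 were called, with a median of 0.07 where the named genes had -0.20. Among the 16 reported targets with all their rows that lay below 1 CPM, 4 were higher in shHKDC1 than in NTC and 0 lower, and 0 were called in shRBBP5. Beside this, 557 of 11642 named genes were higher and 473 lower in shHKDC1 over NTC with no filter. The collagenase MMP1 had 48 units in shHKDC1, 0 units in shRBBP5 and 4 units in NTC (log2 ratio in shHKDC1 4.19 [1.59 to 9.76]). The stromelysin MMP3 had 15 units in shHKDC1 and 0 units in both shRBBP5 and NTC, and PTHLH, a parathyroid hormone-like peptide, had 64 units in shHKDC1, 4 units in shRBBP5 and 10 units in NTC (3.38 [1.67 to 6.93]). The fourth was the endothelial clotting protein VWF (5.15 [2.27 to 10.3]), with 73 units in shHKDC1, 3 units in shRBBP5 and 3 units in NTC. These ratios rest on 1 to 3 fragments or none in NTC.

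Of 43 known RUNX1 targets, 18 had all their rows in the table and 3 were measured. In shHKDC1 over NTC 1 of the 3 was higher, 1 lower and 1 neither, with a median of -0.01. THBS1, the matrix glycoprotein thrombospondin, was at 5.24 CPM in shHKDC1, 1.94 CPM in shRBBP5 and 1.34 CPM in NTC, higher in shHKDC1 (1.97 [1.53 to 2.45]) and not called in shRBBP5 (0.54 [0.05 to 1.08]). ITGA2B, the platelet integrin subunit, was at 0.900 CPM in shHKDC1, 2.58 CPM in shRBBP5 and 2.05 CPM in NTC, lower in shHKDC1 (-1.19 [-1.94 to -0.53]) and not called in shRBBP5 (0.33). MEIS1, a homeobox factor of blood stem cells, was at 1.75 CPM in shHKDC1, 1.69 CPM in shRBBP5 and 1.77 CPM in NTC, the same within counting error. In shRBBP5 over NTC 0 of the 3 were called, with a median of 0.33. Of the 15 targets with all their rows that lay below 1 CPM, 1 was higher in shHKDC1, and in shRBBP5 1 was higher and 1, SPI1, lower. The counts over all 11642 named genes with no filter were 557 higher in shHKDC1, and 134 higher and 291 lower in shRBBP5. CD55, which protects cells from complement, had 179 units in shHKDC1, 38 units in shRBBP5 and 45 units in NTC, and was higher in shHKDC1 (2.74 [1.82 to 3.89]). CD8A, the T cell co-receptor, had 12 units in shHKDC1, 80 units in shRBBP5 and 28 units in NTC, and was higher in shRBBP5 (1.63 [0.35 to 3.13]).

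**Figure D4:**
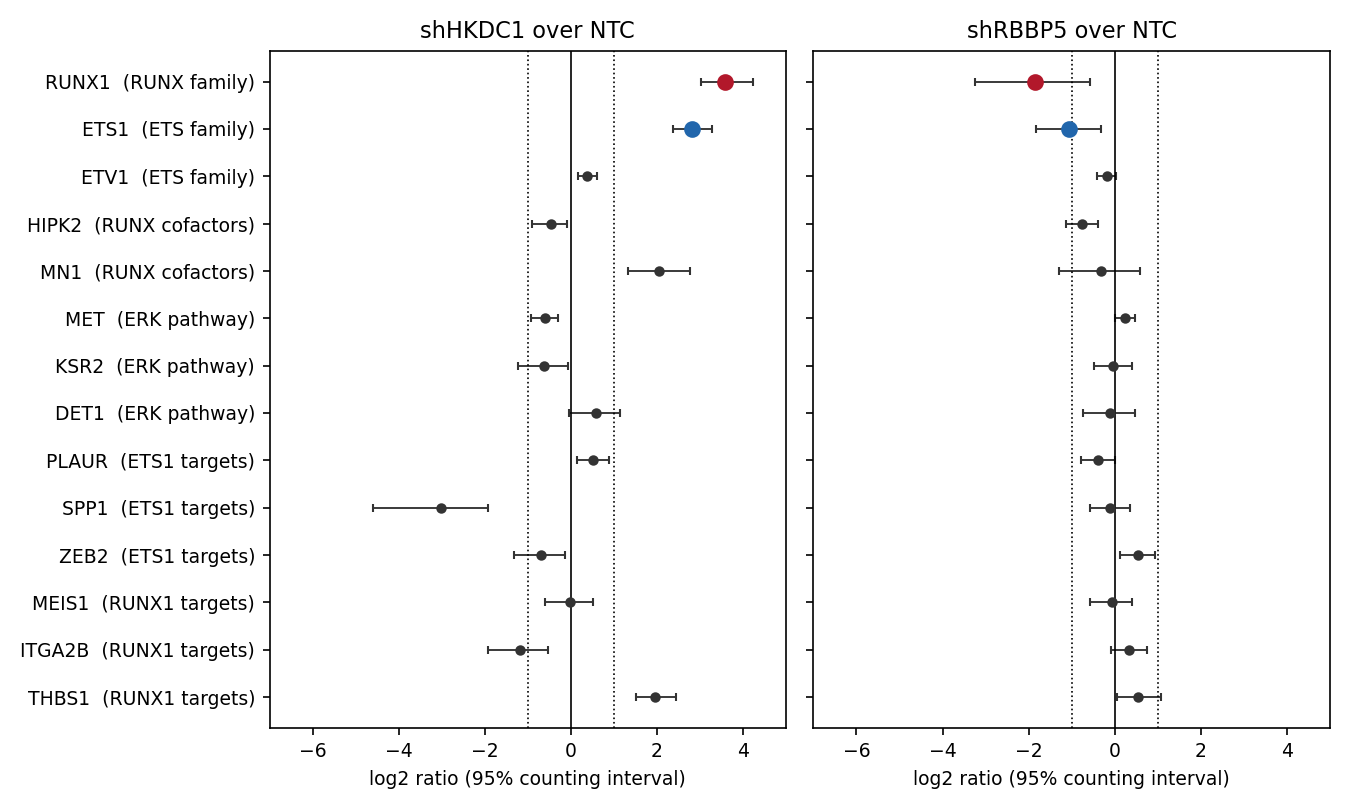
Log2 ratios with exact 95% counting intervals for the measured genes of the RUNX, ETS, cofactor, ERK pathway and target lists, in shHKDC1 over NTC (left) and shRBBP5 over NTC (right), with MET drawn once. RUNX1 (red) and ETS1 (blue) lie right of the upper 2-fold limit on the left and left of the lower one on the right.

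Both factors are abundant in blood cells, and ETS1 in endothelial cells too. Of 20 blood cell markers, 15 had all their rows in the table and 0 reached 1 CPM. Their summed level was 2.57 CPM in shHKDC1, 1.97 CPM in shRBBP5 and 1.501 CPM in NTC. PTPRC, CD3E, CD3D, MS4A1, GATA1, HBB and HBG1, which define leukocytes, T cells, B cells and red cells, were at 0 units in every library. Of the other blood cell markers, VAV1, a signalling protein of leukocytes, was higher in shHKDC1 (1.81 [0.77 to 2.95]), with 100 units in shHKDC1, 48 units in shRBBP5 and 48 units in NTC. In shRBBP5 the myeloid integrin ITGAM was higher (1.11 [0.21 to 2.03]), as was CD8A, and SPI1 was lower. Beside such calls below 1 CPM, 557 of 11642 named genes were higher and 473 lower in shHKDC1 over NTC with no filter. In shRBBP5 over NTC, 134 were higher and 291 lower. Of 13 endothelial markers, 9 had all their rows and 0 reached 1 CPM, with sums of 0.948 CPM in shHKDC1, 0.526 CPM in shRBBP5 and 0.565 CPM in NTC. KDR and ERG were at 0 units, VWF was higher in shHKDC1 as given above, and the tight junction gene CLDN5 was lower there (-1.87 [-4.23 to -0.05]). FLI1, with part of its rows in the table, was also higher in shHKDC1, as given above. Of 12 fibroblast and stellate markers, 8 had all their rows, with sums of 1.58 CPM in shHKDC1, 1.86 CPM in shRBBP5 and 0.953 CPM in NTC. The 1 measured, PDGFRB, was called higher in shHKDC1 (1.29) and in shRBBP5 (1.36), as were 8.37% and 2.27% of the measured named genes. The 7 below 1 CPM were called in no comparison, and COL1A2, FAP and LRAT were at 0 units in every library. Of 27 hepatocyte markers, 4 had all their rows in the table and 2 were measured. Fibrinogen FGB (-2.00) and coagulation factor F5 (-1.82) were both lower in shHKDC1, as were 23.2% of the measured named genes. Neither was called in shRBBP5, and the 2 markers below 1 CPM were called in no comparison. The summed levels for the 4 markers were 1.68 CPM in shHKDC1, 5.61 CPM in shRBBP5 and 6.05 CPM in NTC. Coagulation factor F11, with part of its rows in the table, had 48 units in shHKDC1, 98 units in shRBBP5 and 484 units in NTC. It was lower in both shHKDC1 (-2.56 [-3.56 to -1.71]) and shRBBP5 (-2.16 [-2.90 to -1.56]). ALB and AFP have no row of their own. The part of these markers in the RUNX1 and ETS1 values was not tested.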

How the data were processed

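The series has 1 RNA sequencing library each for shHKDC1, shRBBP5 and NTC. Per the submitters' processing notes, which assign no roles, the tools were HISAT2 2.2.1, StringTie 1.3.4 and DESeq2 1.28.1 and the build was hg19. The authors deposited 1 table of estimated counts per locus or transcript, whose column totals differ and were not scaled to a common size. Its columns shHD and shRB were taken as shHKDC1 and shRBBP5. The counting tool, annotation and strand setting are not stated.

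Of 43704 rows, 16301 are unnamed loci and 27403 RefSeq transcripts, of which 27357 were matched to symbols by accession without version in RefSeq GRCh38.p14. RefSeq rows were summed for the 11642 genes with every transcript present. Libraries were scaled over loci and genes with edgeR 4.0.16 (TMM, R 4.3.3), with factors of 0.894 for shHKDC1, 1.032 for shRBBP5 and 1.083 for NTC. Ratios used a pseudocount of 0.5 units. Features with a mean of at least 1 CPM were measured. Intervals are exact Poisson for levels and Clopper-Pearson for ratios and shares, on fragments of 4 units, computed in SciPy 1.17.1. The calculation was tested on simulated data, drawn with counting noise alone at 4 units per fragment. That simulation cannot check the assumption of 4 units, the spread between libraries or the division of reads between rows. The design assigned no test, as there is 1 library per group. The members, the 10 gene lists and the rule for naming genes (the members, measured list genes and the 3 nearest genes by ratio) were chosen with earlier results of these data known. A gene of the ETS1 target list is not reported here and was left out of its counts. Genes that fell below 1 CPM or had part of their rows are named after their values were seen. DESeq2 1.42.0 size factors were among 9 alternatives.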

Additional observations from a re-analysis of the deposited data

How the results depend on the processing

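The 6 log2 ratios of RUNX1 and ETS1 kept their direction and their call under 8 alternatives. These were total counts, DESeq2 size factors, upper quartiles, TMM without the 20 largest rows, a pseudocount of 5, no filter, units taken as reads, and the largest row alone. In shHKDC1 over NTC, RUNX1 ranged from 3.32 to 3.67 and ETS1 from 2.54 to 2.90. In shRBBP5 over NTC they ranged from -2.51 to -1.70 and from -1.12 to -1.015, and in shHKDC1 over shRBBP5 from 5.24 to 5.99 and from 3.67 to 3.99. All 48 levels recomputed stayed inside their counting interval. The pseudocount, no filter and units taken as reads cannot change a level, so their agreement was fixed in advance. No filter and units taken as reads cannot change the value of a ratio either. Units taken as reads only narrow its interval, so neither alternative could lose a call. The largest row holds 100% of the ETS1 units in shRBBP5 and NTC, so that ratio could not change with it. No alternative took a fragment as more than 4 units. A mean of at least 5 CPM leaves neither gene measured. Depth limits RUNX1 in shRBBP5 most, at about 7 fragments. No paired analysis was possible because each group has 1 library.

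Counts of calls moved more. In shHKDC1 over NTC, 1066 features were higher and 1605 lower. Total counts gave 602 and 2633, no filter gave 1758 higher, and at least 5 CPM gave 697 higher. Among named genes, with 85 higher and 235 lower, no filter gave 557 and 473, at least 5 CPM gave 2 and 48, and the largest row alone gave 130 higher. In shRBBP5 over NTC, 231 features were higher and 357 lower, against 414 and 703 with no filter and 113 and 164 at 5 CPM. Named genes went from 23 and 88 to 134 and 291 with no filter and 0 and 7 at 5 CPM, and the largest row alone gave 71 higher. In shHKDC1 over shRBBP5, 1017 features were higher and 1347 lower, against 1777 higher with no filter and 612 and 881 at 5 CPM. Named genes went from 116 and 177 to 661 and 390 with no filter and 3 and 32 at 5 CPM. A filter changes how many features are counted. Total counts leave out the TMM factors, which shifts every ratio of a comparison by the same amount. The cause of the other moves was not tested. In shHKDC1 over NTC, the median over all features was -0.31 with total counts and -0.03 with TMM.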
